A study of Arabidopsis thaliana with 12 samples.

Results

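Clade A of the type 2C protein phosphatases (PP2Cs) comprises 9 genes in Arabidopsis, and all 9 were found by locus among the 22953 genes of the expression table: *ABI1* (AT4G26080), *ABI2* (AT5G57050), *HAB1* (AT1G72770), *HAB2* (AT1G17550), *AHG1* (AT5G51760), *PP2CA* (AT3G11410), *HAI1* (AT5G59220), *HAI2* (AT1G07430) and *HAI3* (AT2G29380). Expression was measured in shoots of Columbia-0 seedlings in 4 groups of 3 replicates. The groups were the wild type on 1/2 MS media without sucrose (WT), the wild type given 1% sucrose (WT-Suc), the *tmt2* mutant without sucrose (*tmt2-S*) and the mutant given 1% sucrose (*tmt2-L-Suc*). The labels give an age of 7 days for *tmt2-S* and 5 days for each other group, and the study chose the later harvest because *tmt2-S* grows more slowly. The mutant is a single T-DNA line (SAIL_124_H03) that lacks a full-length transcript of *TMT2*, a vacuolar sugar transporter. *tmt2-S* is the name the study gives to mutant seedlings that form no true leaves, so mutation, age and arrest cannot be told apart in *tmt2-S*/WT, nor sucrose, age and arrest in *tmt2-S*/*tmt2-L-Suc*. The name *tmt2-L* stands for mutant seedlings that develop normally. In contrasts that hold *tmt2-L-Suc*, any such choice of seedlings cannot be told apart from the mutation.

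Abscisic acid (ABA) is the plant hormone of drought, seed dormancy and arrested seedling growth. Clade A PP2Cs are its negative regulators: without ABA they bind SnRK2 kinases, dephosphorylate them and keep them inactive. When ABA is present, PYR/PYL receptors occupy the active site of the phosphatase, the SnRK2 kinases are freed, and ABF-type bZIP factors switch on ABA-responsive genes. Several of the phosphatase genes are themselves induced by ABA, which makes their transcripts both part of the brake and part of the output.

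The libraries were even in depth, with 20187961 to 21370053 expected counts each, and 18506 genes had enough counts to be tested. Summed FPKM (fragments scaled to transcript length and library size, the deposited expression level) of 4 shoot markers was 36670 to 64670 in every library, while that of 6 root markers was at most 8.35. The 4 seed markers summed to 175.1 in WT-Suc 2, against at most 10.01 in the other libraries. WT-Suc 2, like each other library, was left out in turn. Counts over the whole *TMT2* gene do not check the genotype, since the insertion lies in the last exon and RNA before it is still made. *TMT2* FPKM was 7.04 to 9.36 in WT and 21.81 to 25.36 in *tmt2-S*, with a log2FC of 1.48 (SE 0.24, edgeR adjusted p = 0.000347). In *tmt2-L-Suc* it was 10.83 to 24.83, with a log2FC of 0.94 against WT (SE 0.24, edgeR adjusted p = 0.0234).

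The 9 phosphatase genes differed widely in level. In the WT, *PP2CA* had the highest FPKM with 24.0 ± 7.25 (SD, n = 3), followed by *HAB1* with 15.6 ± 0.466, *ABI1* with 13.9 ± 4.71 and *HAB2* with 8.41 ± 0.248. *PP2CA* was the highest in all 3 WT libraries, while *HAB1* and *ABI1* changed places, because *ABI1* lay at 19.03 in WT 1 and at 9.75 in WT 3. *ABI2* reached 1.91 ± 0.617, *HAI1* 0.813 ± 0.197 and *HAI2* 0.190 ± 0.148. *AHG1* and *HAI3* were at the limit of detection: *AHG1*, which is best known from seeds, had 0 to 2 expected counts per library, and *HAI3* had 0 to 5, with 5 in WT 1 alone. These 2 genes did not pass the filter on low counts, and 7 of the 9 were tested.

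**Figure D1:**
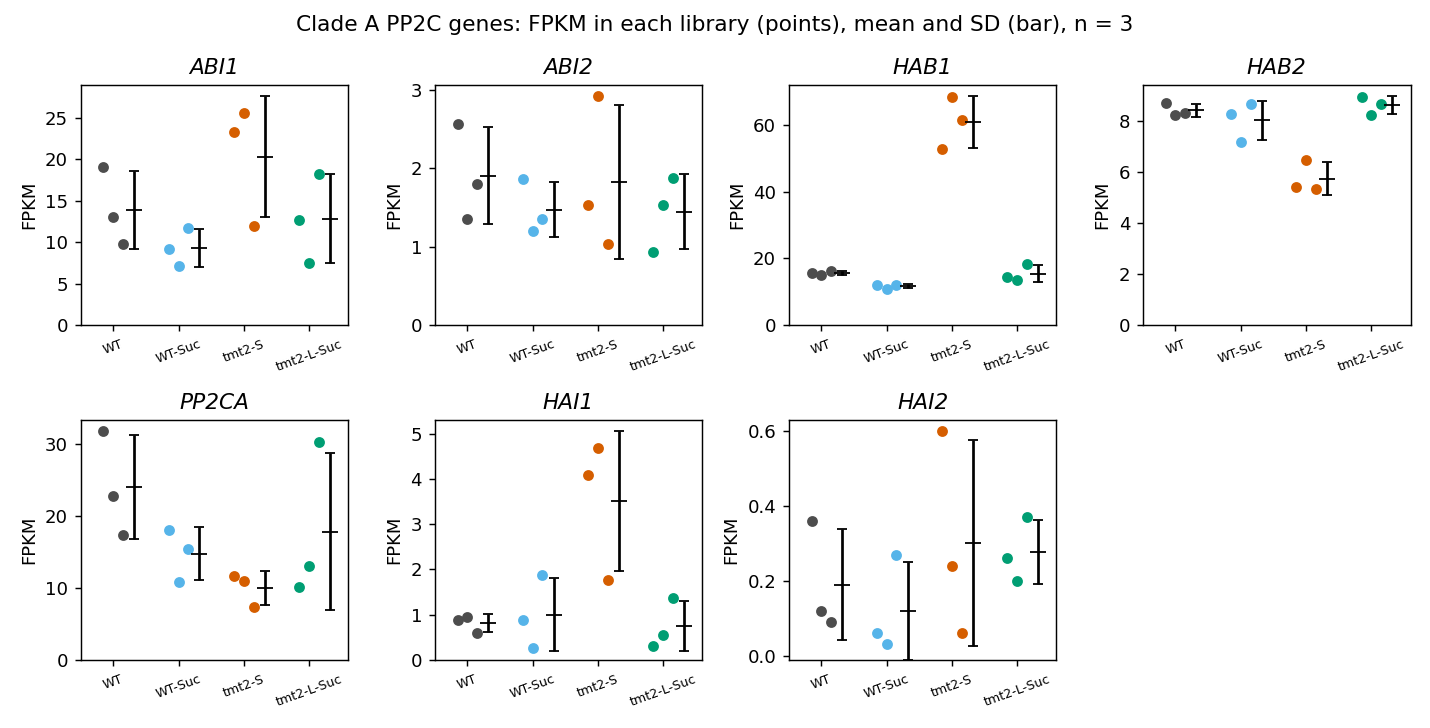
FPKM of the 7 tested clade A PP2C genes in each library (points, 3 per group), with the group mean and SD beside the points and a separate linear axis for each gene. *HAB1* lies between 52.89 and 68.22 in *tmt2-S* and between 10.97 and 18.36 in the other 9 libraries, *HAB2* is lower in *tmt2-S* than elsewhere, and *ABI1*, *ABI2* and *HAI2* overlap between the groups.

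The comparison of *tmt2-S*/WT asks what the mutant without sucrose expresses differently from the wild type on the same media. The clade was split: *HAB1* and *HAI1* rose, *PP2CA* and *HAB2* fell, and *ABI1*, *ABI2* and *HAI2* did not pass the test. A gene passed at an adjusted p of 0.05 or less (edgeR quasi-likelihood test, Benjamini-Hochberg over all genes tested), and it was a DEG with a log2FC of at least 1.2 in size as well. Thus 4 of the 7 tested members passed, against 43.3% of all genes tested, and 3 were DEGs, against 19.8%. The same 4 were without overlap between the groups, as were 50% of all genes tested. The median log2FC of the 7 was 0.49, beside -0.01 over all genes. At 2 higher and 2 lower, the members that passed have no common direction. Over all genes tested, 20.7% were higher and 22.6% lower, so the share of the 7 that passed in each direction was also near the background.

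*HAB1* and *HAB2* encode closely related phosphatases that act on SnRK2 kinases, and HAB1 also binds a chromatin-remodelling subunit. *HAB1* lies on chromosome 1 (chr1:27389948-27393327 of TAIR10.1). Its FPKM was 15.67, 15.16 and 16.09 in WT, 52.89, 68.22 and 61.45 in *tmt2-S*, 11.92, 10.97 and 12.12 in WT-Suc, and 14.49, 13.43 and 18.36 in *tmt2-L-Suc*. All 3 *tmt2-S* libraries were above every other library, and the spread within each of the other groups was small. Between *tmt2-S* and WT the log2FC was 1.93 (SE 0.15, edgeR adjusted p = 2.27e-06), a 3.82-fold rise, and it stayed between 1.85 and 2.02 with any 1 library left out. In order of level, *tmt2-S* was followed by WT, *tmt2-L-Suc* and WT-Suc, and no pair among these 3 groups passed the test.

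*HAB2* (chr1:6034270-6037398) went the other way. Its FPKM was 8.69, 8.22 and 8.32 in WT, 5.39, 6.48 and 5.32 in *tmt2-S*, 8.27, 7.17 and 8.64 in WT-Suc, and 8.93, 8.24 and 8.65 in *tmt2-L-Suc*. The *tmt2-S* libraries were below all 9 others, which overlapped each other. The fall was small but regular, at 1.49-fold (log2FC -0.58, SE 0.13, edgeR adjusted p = 0.00315). Of these closely related genes, the more abundant one rose and the other fell, so that the ratio of *HAB1* to *HAB2* FPKM was 9.81, 10.5 and 11.6 in *tmt2-S* against 1.80, 1.84 and 1.93 in WT.

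*PP2CA* (chr3:3583782-3585850), also named *AHG3*, encodes a phosphatase that acts in seed and guard cell ABA responses. Its FPKM was 31.74, 22.78 and 17.39 in WT, 11.65, 10.90 and 7.28 in *tmt2-S*, 18.08, 10.84 and 15.38 in WT-Suc, and 10.07, 13.06 and 30.20 in *tmt2-L-Suc*. The *tmt2-S* libraries were below all of WT but overlapped WT-Suc and *tmt2-L-Suc*, where replicate 3 of the latter stood far above its group. *PP2CA* was 2.5-fold lower in *tmt2-S* than in WT (log2FC -1.32, SE 0.37, edgeR adjusted p = 0.012), and this call was lost without WT 1 (log2FC -1.03, edgeR adjusted p = 0.0561). Of 5 guard cell markers, 1 fell in *tmt2-S*, the potassium channel gene *KAT1* (named after its value was seen), from 20.7 ± 9.98 to 1.98 ± 0.448 FPKM. The other 4 did not pass, the median log2FC of the 5 was 0.11, and none was at or under 3 counts. In whole shoots, fewer cells of a type and less RNA per cell cannot be told apart.

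*HAI1* (chr5:23894404-23896939) and *HAI2* (chr1:2280746-2282828) belong to the HAI genes, named for strong induction by ABA. *HAI1* FPKM was 0.89, 0.96 and 0.59 in WT, 4.09, 4.68 and 1.76 in *tmt2-S*, 0.88, 0.26 and 1.87 in WT-Suc, and 0.31, 0.56 and 1.37 in *tmt2-L-Suc*. All *tmt2-S* values exceeded those of WT and *tmt2-L-Suc*, but *tmt2-S* 3 lay below WT-Suc 3. The rise of *HAI1* was 4.13-fold (log2FC 2.05, SE 0.61, edgeR adjusted p = 0.0164) on low counts, with 31, 33 and 20 expected counts in WT and 139, 158 and 62 in *tmt2-S*. It did not pass without WT 3 (log2FC 1.82, edgeR adjusted p = 0.0626) or without *tmt2-S* 2 (log2FC 1.80, edgeR adjusted p = 0.0597). *HAI2* FPKM did not exceed 0.60 in any library, its groups overlapped, and its log2FC of 0.60 had an SE of 0.81 (edgeR adjusted p = 0.579).

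*ABI1* (chr4:13219915-13222376) and *ABI2* (chr5:23087122-23089631) are the founding members of the clade, found through dominant ABA-insensitive mutants. *ABI1* FPKM was 19.03, 13 and 9.75 in WT, 23.29, 25.62 and 12 in *tmt2-S*, 9.16, 7.14 and 11.67 in WT-Suc, and 12.73, 7.53 and 18.24 in *tmt2-L-Suc*. The highest values were those of *tmt2-S* 1 and 2, but *tmt2-S* 3 lay within the WT range. The log2FC of *tmt2-S*/WT was 0.49 (SE 0.35, edgeR adjusted p = 0.281). *ABI2* FPKM lay between 0.94 and 2.92 in the 12 libraries, and its log2FC of -0.09 (SE 0.39, edgeR adjusted p = 0.867) was smaller than its error. The end of *ABI1* overlaps the gene on the opposite strand, AT4G26070, by 22 bases, and no other member overlaps a gene.

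The changes in *tmt2-S* altered the make-up of the clade's RNA. The summed FPKM of the 9 genes was 54.03 to 79.23 in WT, 37.69 to 51.34 in WT-Suc, 88.94 to 119.1 in *tmt2-S* and 44.55 to 79.15 in *tmt2-L-Suc*. The *tmt2-S* libraries therefore held the most clade A PP2C RNA per mapped fragment, without overlap with the others. *HAB1* alone supplied 53.17 to 69.09% of the sum in *tmt2-S*, against 19.78 to 30.33% in the other groups. *PP2CA*, which supplied 32.19 to 40.06% in WT, fell to 8.185 to 11.71% of the sum in *tmt2-S*. In WT the FPKM of *HAB1* was below that of *PP2CA* in all 3 libraries (ratios 0.494, 0.665 and 0.925), and in *tmt2-S* it was 4.54, 6.26 and 8.44 times as high. Sums and shares are given as descriptions, with no test.

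**Figure D2:**
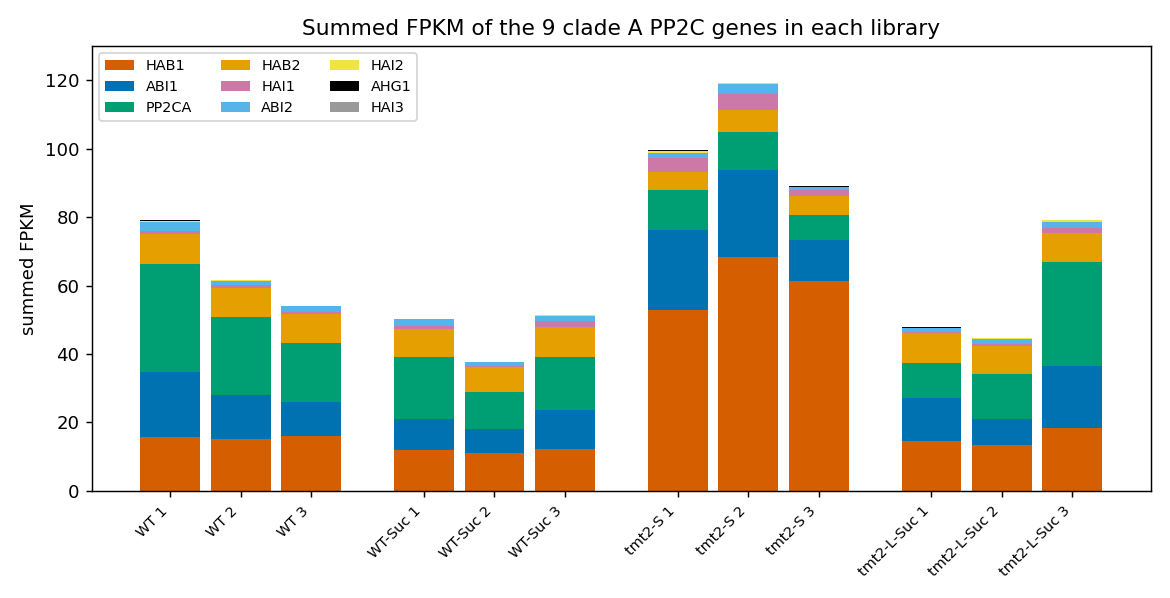
Summed FPKM of the 9 clade A PP2C genes in each of the 12 libraries, stacked by gene on a linear axis from 0. The *tmt2-S* bars reach 88.94 to 119.1 and more than any other bar, with *HAB1* making up 53.17 to 69.09% of them.

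The contrast *tmt2-S*/*tmt2-L-Suc* sets mutant seedlings without sucrose, aged 7 days, against mutant seedlings with it, aged 5 days. *HAB1* and *HAI1* were higher and *HAB2* lower in *tmt2-S*, so that 3 of the 7 tested members passed, against 51.5% of all genes tested. *HAB1* was 4.14-fold higher (log2FC 2.05, SE 0.15, edgeR adjusted p = 9.16e-07) and *HAI1* 4.87-fold higher (log2FC 2.29, SE 0.62, edgeR adjusted p = 0.00768). *HAB2* was 1.42-fold lower (log2FC -0.50, SE 0.13, edgeR adjusted p = 0.00589). The groups did not overlap for these 3 genes, nor for 55.9% of all genes tested. *PP2CA* had a log2FC of -0.77 (SE 0.37, edgeR adjusted p = 0.0999), and it passed without *tmt2-L-Suc* 1 (log2FC -1.07, edgeR adjusted p = 0.0254). *ABI1* had a log2FC of 0.74 (SE 0.35, edgeR adjusted p = 0.0904) and passed without *tmt2-S* 3 (log2FC 1.00, edgeR adjusted p = 0.0316) or without *tmt2-L-Suc* 3 (log2FC 1.06, edgeR adjusted p = 0.0392). This comparison shares the *tmt2-S* libraries with that of *tmt2-S*/WT, so the values are given side by side and their likeness was not tested.

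Between WT-Suc and WT, which differ in sucrose only, no member passed, beside 1.47% of all genes tested. At an unadjusted p under 0.05 there were 2 members, *HAB1* and *PP2CA*, against 19.5% of all genes tested, and DESeq2 called 1, *HAB1*. *HAB1* was lower in all 3 WT-Suc libraries than in any WT library, with a log2FC of -0.49 (SE 0.14, edgeR adjusted p = 0.0979, DESeq2 adjusted p = 0.0151). It was the only tested member whose groups did not overlap, as did those of 25.9% of all genes tested. *PP2CA* had a log2FC of -0.80 (SE 0.37, edgeR adjusted p = 0.253) and *ABI1* of -0.67 (SE 0.35, edgeR adjusted p = 0.315). The median log2FC of the 7 members was -0.49, beside 0.01 over all genes. Without WT-Suc 2, the library with high seed markers, no gene of the whole table passed, so that setting says nothing about the members.

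The mutant with sucrose was set against the wild type without it and with it. No member passed between *tmt2-L-Suc* and WT, against 11.7% of all genes tested, none had an unadjusted p under 0.05, against 27.7%, and DESeq2 called none. The log2FC ran from -0.56 for *PP2CA* to 0.43 for *HAI2*, with edgeR adjusted p from 0.35 to 0.852, and every tested member's groups overlapped, while those of 36.4% of all genes tested did not. *HAB1* had a log2FC of -0.12 (SE 0.14, edgeR adjusted p = 0.643). In *tmt2-L-Suc*/WT-Suc, a contrast of seedlings matched in sucrose and age, no member passed by edgeR, against 20.5% of all genes tested, 1 had an unadjusted p under 0.05, against 35.9%, and DESeq2 called 1, in both cases *HAB1*. With 7 genes, counts of none and 1 do not show that the groups are alike. *HAB1* was higher in all 3 *tmt2-L-Suc* libraries than in any WT-Suc library (38.8% of all genes tested had no overlap either), with a log2FC of 0.37 (SE 0.14, edgeR adjusted p = 0.0787, DESeq2 adjusted p = 0.0354). *HAI2* had the largest log2FC there, 1.15, with an SE of 0.87 (edgeR adjusted p = 0.368), and *ABI1* had 0.41 (SE 0.35, edgeR adjusted p = 0.426).

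**Figure D3:**
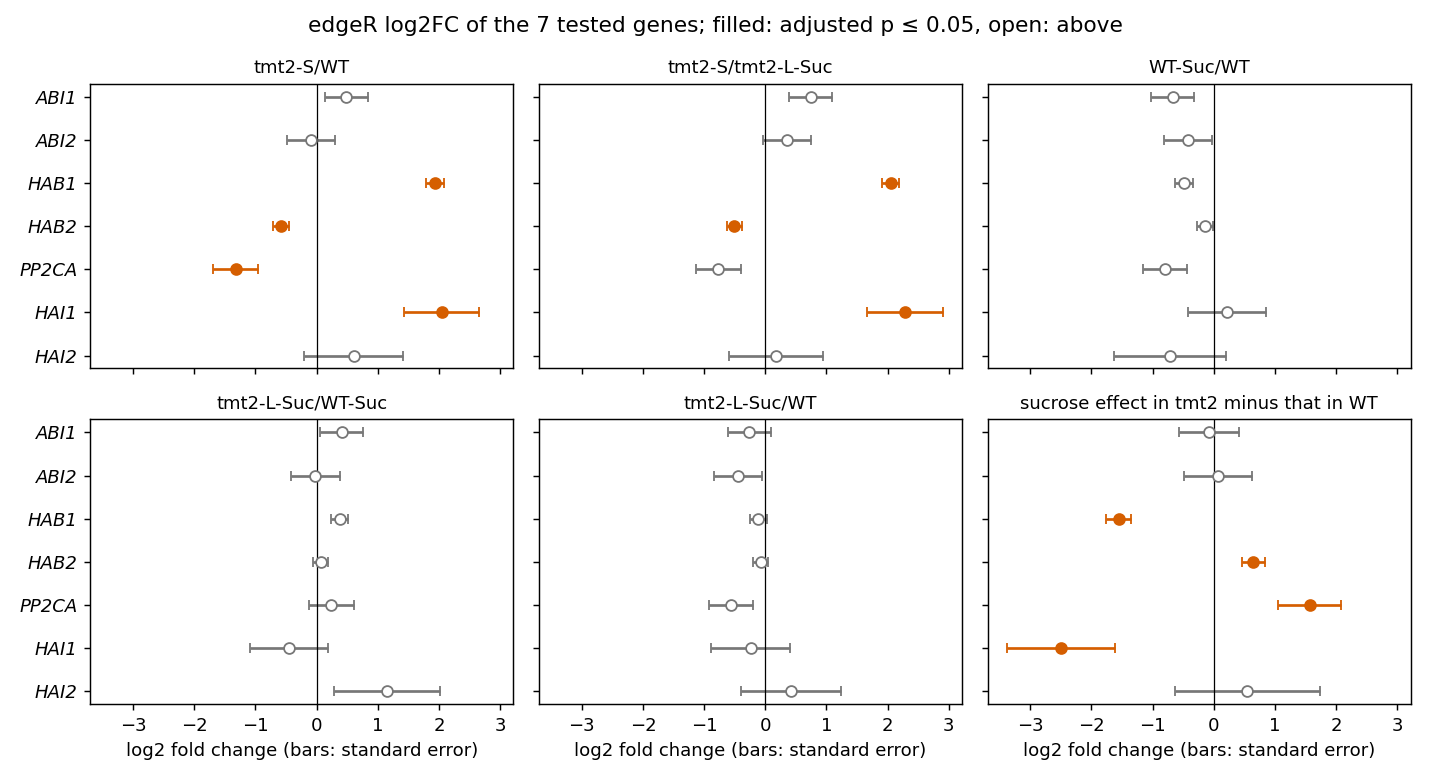
The edgeR log2 fold change of the 7 tested members in the 5 comparisons and in the interaction (sucrose effect in *tmt2* minus that in the WT), with bars for the standard error and filled points for an adjusted p of 0.05 or less. Filled points appear in the comparisons that hold *tmt2-S* and in the interaction, and none appear in WT-Suc/WT, *tmt2-L-Suc*/WT-Suc or *tmt2-L-Suc*/WT.

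Whether sucrose acted differently on the clade in the mutant was asked with the interaction, the sucrose effect in *tmt2* minus the sucrose effect in the WT. It includes the age difference and the arrest of *tmt2-S*. The interaction passed for 4 of the 7 members, against 34.6% of all genes tested, and the 4 were *HAB1*, *HAB2*, *PP2CA* and *HAI1*. For *HAB1* it was -1.56 (SE 0.20, edgeR adjusted p = 0.000216): the log2 level was 2.05 lower with sucrose in the mutant and 0.49 lower in the WT. For *HAB2* it was 0.65 (SE 0.18, edgeR adjusted p = 0.0161). *PP2CA* had 1.56 (SE 0.52, edgeR adjusted p = 0.0343) and *HAI1* had -2.5 (SE 0.88, edgeR adjusted p = 0.0436), and both of these calls lay close to the threshold. That of *PP2CA* was lost without WT 1, WT 2, WT-Suc 2, WT-Suc 3, *tmt2-S* 2, *tmt2-S* 3 or *tmt2-L-Suc* 3, with values from 0.99 without the last (edgeR adjusted p = 0.0911) to 1.63 without *tmt2-S* 2 (edgeR adjusted p = 0.0546). That of *HAI1* was lost without any 1 of the WT libraries, WT-Suc 3, *tmt2-S* 1, *tmt2-S* 2, *tmt2-L-Suc* 1 or *tmt2-L-Suc* 2, with values from -1.65 without WT-Suc 3 (edgeR adjusted p = 0.161) to -2.65 without WT 2 (edgeR adjusted p = 0.0659). *ABI1*, *ABI2* and *HAI2* had interactions of -0.07, 0.07 and 0.55, with edgeR adjusted p from 0.752 to 0.933.

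Within the groups, the phosphatase genes varied together from library to library. After each group's mean was subtracted from the log2 CPM (library-scaled counts, CPM, prior count 2), all 21 pairs among the 7 members had a positive correlation over the 12 libraries, from 0.13 for *HAB1* and *HAI2* to 0.82 for *ABI1* and *HAI2*. In WT, *PP2CA* deviated by 0.51 in replicate 1 and by -0.50 in replicate 3, and *ABI1* by 0.57 and -0.54. In *tmt2-L-Suc* 3, *PP2CA* was 0.90, *ABI1* 0.56 and *HAI1* 1.02 above the group mean, and in *tmt2-S* 3 the same genes were 0.39, 0.65 and 0.83 below it. In these libraries, replicates that stood high or low for *PP2CA* thus did so for *ABI1* and *HAI1*. *HAB1* deviated by only 0.04 in *tmt2-S* 3 and *HAB2* by -0.03 in *tmt2-L-Suc* 3. How often other pairs of genes vary together in this way was not computed. The mean deviation of 21 ABA-induced genes, a list that holds none of the phosphatases, ran with them: it was 0.59 in *tmt2-L-Suc* 3, 0.34 in WT 1 and -0.43 in *tmt2-S* 3. Its correlation with the members was 0.93 for *PP2CA*, 0.86 for *ABI1*, 0.75 for *HAI1*, 0.73 for *ABI2*, 0.61 for *HAB1*, 0.58 for *HAI2* and 0.46 for *HAB2*. These are descriptions over 12 points that share library and depth, with no test.

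The biological coefficient of variation, the spread between replicates in the model, was 0.118 for *HAB2*, 0.138 for *HAB1*, 0.299 for *ABI1*, 0.313 for *PP2CA*, 0.325 for *ABI2*, 0.507 for *HAI1* and 0.591 for *HAI2*, beside 0.209 over all genes. *HAB1* and *HAB2*, the steadiest members, could therefore be measured with the smallest errors. With the group differences left in, the log2 CPM of *HAB1* and *HAB2* had a correlation of -0.82 over the 12 libraries, *HAB1* and *HAI1* of 0.79 and *HAB1* and *PP2CA* of -0.42. Within groups, *HAB1* and *HAB2* had 0.47, so their opposition lay between the groups.

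The genes outside the clade whose log2 CPM followed each member most closely over the 12 libraries were *SCL3*, a GRAS family gene, for *HAB1* (Pearson r = 0.99), *CLE16*, which encodes a small peptide, for *HAB2* (0.975), and *GPRI1*, a GARP transcription factor gene also called *GLK1*, for *PP2CA* (0.914). They were AT3G48240 for *ABI1* (0.955), *GR1* for *ABI2* (0.866), AT1G45230 for *HAI1* (0.929) and AT5G22020 for *HAI2* (0.889). Each was the highest of 18499 candidate genes, and the 12 points share groups and libraries. The next gene was nearly level for *HAB1* (*AAC3*, 0.989) and *PP2CA* (*GLX1*, 0.913), and further off for *ABI1* (AT5G17780, 0.93). The top rank alone therefore does not single out a partner.

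The promoters of the 4 members that differed in *tmt2-S*/WT are shown here because the core of the ABA-responsive element, ACGTG, is the site bound by ABF-type factors. The windows are the 250 bases before the annotated gene start in TAIR10.1: chr1:27389698-27389947 on the plus strand for *HAB1*, chr5:23896940-23897189 on the minus strand for *HAI1*, chr3:3585851-3586100 on the minus strand for *PP2CA* and chr1:6034020-6034269 on the plus strand for *HAB2*. They are written 5′ to 3′ toward the gene, and capitals mark ACGTG on either strand (ACGTG or CACGT, with the palindrome CACGTG counted as 2 overlapping matches):
HAB1: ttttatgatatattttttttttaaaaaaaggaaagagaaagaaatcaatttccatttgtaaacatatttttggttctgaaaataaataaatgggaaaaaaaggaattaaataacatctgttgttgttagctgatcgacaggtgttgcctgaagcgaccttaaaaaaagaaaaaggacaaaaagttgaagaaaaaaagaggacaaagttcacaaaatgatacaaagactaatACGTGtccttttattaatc
HAI1: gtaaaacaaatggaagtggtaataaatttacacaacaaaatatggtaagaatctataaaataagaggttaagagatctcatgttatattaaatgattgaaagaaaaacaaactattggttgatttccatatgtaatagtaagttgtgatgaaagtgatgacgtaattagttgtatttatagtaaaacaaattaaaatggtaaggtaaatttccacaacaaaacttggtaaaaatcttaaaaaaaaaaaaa
PP2CA: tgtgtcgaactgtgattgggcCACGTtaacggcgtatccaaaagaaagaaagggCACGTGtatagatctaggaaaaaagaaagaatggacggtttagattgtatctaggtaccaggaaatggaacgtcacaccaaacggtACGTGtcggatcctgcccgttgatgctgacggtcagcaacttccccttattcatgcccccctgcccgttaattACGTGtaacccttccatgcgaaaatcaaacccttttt
HAB2: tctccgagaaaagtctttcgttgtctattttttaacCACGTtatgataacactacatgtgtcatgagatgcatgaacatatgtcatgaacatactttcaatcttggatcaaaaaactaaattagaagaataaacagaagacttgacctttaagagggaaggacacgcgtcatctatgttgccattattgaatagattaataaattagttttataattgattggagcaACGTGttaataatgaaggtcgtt

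The window of *PP2CA* held 5 matches, at -229, -196, -195, -110 and -37, of which those at -196 and -195 form 1 CACGTG. *HAB2* held 2 (-214 and -23), *HAB1* held 1 (-19) and *HAI1* held none. Of the other members, *HAI2* held 4, *AHG1* and *HAI3* held 2 each, and *ABI1* and *ABI2* held none. Among 27443 protein-coding genes, 22.9% had at least 1 match in a window of this length and 1.34% had 4 or more. Over 1000 bases, 54.4% of genes had a match, *HAB1* and *HAI2* had 6, *PP2CA* had 5, *AHG1* and *HAI3* had 3, *HAB2* had 2, *ABI1* and *ABI2* had 1 and *HAI1* had none. Thus neither the members that rose nor those that fell in *tmt2-S* shared a number of matches. A match describes letters only, and its absence says nothing of the factors that act there.

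**Figure D4:**
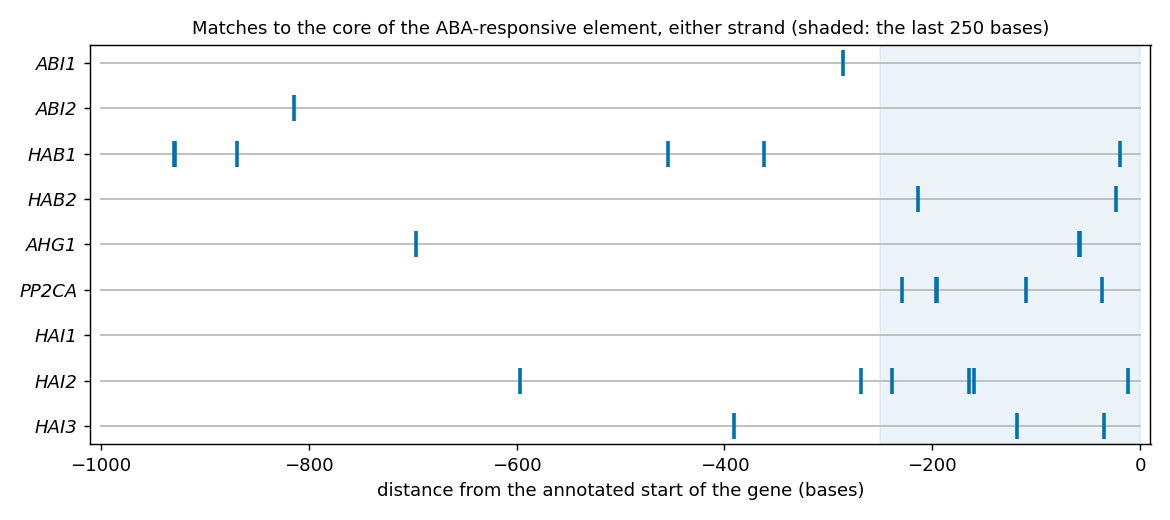
Matches to the core of the ABA-responsive element on either strand (ticks) in the 1000 bases before the annotated start of the 9 genes, by distance from the start, with the last 250 bases shaded. *PP2CA* and *HAI2* have 5 and 4 matches in the shaded window, and *HAI1* has none in the whole stretch.

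The genes around the phosphatases in the pathway were set beside them in *tmt2-S*/WT. Over all genes tested, 43.3% passed in this comparison, 20.7% higher and 22.6% lower. Each list count below, that of clade D included, is to be read beside these shares. No list was tested as a set. Of 14 receptor genes of the PYR/PYL family, 9 were tested, 6 were higher and 1 was lower, with a median log2FC of 0.79 beside -0.01 over all genes. *PYL7* had the largest rise, from 11.3 ± 2.03 FPKM (SD, n = 3) in WT to 34.8 ± 3.96 in *tmt2-S* (log2FC 1.59, SE 0.21, edgeR adjusted p = 8.66e-05). *PYL5* rose from 70.1 ± 13.8 to 187 ± 39.0 FPKM (log2FC 1.39, edgeR adjusted p = 0.00355). *PYL4*, the most abundant receptor gene, rose from 137 ± 18.9 to 242 ± 48.5 FPKM (log2FC 0.79, edgeR adjusted p = 0.00337). *PYR1*, the receptor gene found with the synthetic agonist pyrabactin, was the 1 that fell (log2FC -0.53, edgeR adjusted p = 0.0355), and this call was lost when WT 1, WT 3, *tmt2-S* 1 or *tmt2-S* 2 was left out (edgeR adjusted p up to 0.129). *HAB1*, *HAI1* and 6 of the 9 tested receptor genes were thus higher in *tmt2-S*, while *PP2CA*, *HAB2* and *PYR1* were lower.

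Of the 10 SnRK2 kinase genes, 2 were higher and 4 lower in *tmt2-S*. *OST1* (SnRK2.6), the kinase of stomatal closure and a direct substrate of the clade, rose from 9.19 ± 0.750 to 14.9 ± 1.97 FPKM (log2FC 0.66, edgeR adjusted p = 0.00308), and *SNRK2.10*, the most abundant of the family, rose from 47.5 ± 5.55 to a mean of 86.6 (range 78.69 to 97.96, log2FC 0.84, edgeR adjusted p = 0.00104). *SNRK2.10* and *SNRK2.4* encode kinases activated by osmotic stress and not by ABA. *SNRK2.4*, next in abundance, had 39.2 ± 5.04 and 40.0 ± 5.73 FPKM. *SNRK2.9* fell to at most 3 counts in *tmt2-S* from 0.603 ± 0.287 FPKM in WT (edgeR adjusted p = 0.00759). It had 0 FPKM in every *tmt2-L-Suc* library and was lower in *tmt2-L-Suc*/WT as well (edgeR adjusted p = 0.00519). *SNRK2.5* fell from 2.88 ± 1.18 to 0.913 ± 0.362 FPKM (log2FC -1.68, edgeR adjusted p = 0.0325), a call lost when 1 of 4 single libraries was left out, WT 2, WT 3, *tmt2-S* 2 or *tmt2-S* 3 (edgeR adjusted p up to 0.108).

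Of 9 ABA-related transcription factor genes, 8 were tested, 1 rose and 3 fell. The number that passed went from 4 to 2 (1 higher and 1 lower) without WT 1, with only the groups compared or with at least 10 counts in every library. *ABF4* rose 2.02-fold, from 20.9 ± 1.88 to 43.3 ± 3.06 FPKM (log2FC 1.01, SE 0.12, edgeR adjusted p = 3.18e-05), and *ABF3*, the most abundant, had 69.6 ± 3.63 and 93.6 ± 15.7 FPKM (edgeR adjusted p = 0.0675). *ABF1* fell 5.81-fold, from 2.72 ± 0.958 to 0.477 ± 0.185 FPKM (log2FC -2.54, edgeR adjusted p = 0.000153). *ABI3*, a regulator of seed maturation, had at most 1 count in *tmt2-S* and 0.227 ± 0.198 FPKM in WT, and its call (edgeR adjusted p = 0.00924) was lost without WT 1 (edgeR adjusted p = 0.0511). In *tmt2-L-Suc*/WT, 3 of the 8 tested factor genes were lower and 0 higher, against 11.7% of all genes tested. They were *ABF1* (0.77 ± 0.06245 FPKM in *tmt2-L-Suc*, log2FC -1.89, edgeR adjusted p = 0.00494), *ABI3* (edgeR adjusted p = 0.0196) and *ABF4* (log2FC -0.665, edgeR adjusted p = 0.00432). The falls of *ABF1* and *ABI3* were thus not particular to *tmt2-S*. All 4 seed markers were at or under 3 counts in *tmt2-S* and summed to 3.19 to 10.01 FPKM in WT. Their part in the fall of *ABI3* was not tested.

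Of 24 ABA-induced genes, 21 were tested, 5 were higher and 3 lower, with a median log2FC of -0.04. The number that passed fell from 8 to 5 without WT 1, *tmt2-S* 2 or *tmt2-S* 3, with 4, 3 and 4 of the 5 higher. *NAP*, a NAC factor gene of leaf senescence, rose from 10.3 ± 4.32 to 37.5 ± 13.8 FPKM (log2FC 1.80, edgeR adjusted p = 0.00101). *RD20*, a caleosin gene, had the largest fitted rise (log2FC 2.28, SE 0.85, edgeR adjusted p = 0.0442), which was lost without any 1 of the WT libraries, WT-Suc 1, WT-Suc 3, *tmt2-S* 2 or *tmt2-S* 3 (edgeR adjusted p up to 0.138). *EM6*, a late embryogenesis abundant gene of seeds, fell to at most 3 counts in *tmt2-S* from 3.19 ± 1.31 FPKM in WT (edgeR adjusted p = 0.00118), and *KIN2*, a cold- and ABA-induced gene, fell from 32.4 ± 18.5 to 13.7 ± 2.57 FPKM (edgeR adjusted p = 0.0386), a call lost without WT 1, WT 2 or any 1 of the *tmt2-S* libraries (edgeR adjusted p up to 0.181). The most abundant of the list, the dehydrin genes *ERD10* and *COR47*, did not pass. They had 104 ± 36.7 and 93.3 ± 12.9 FPKM in WT and 70.5 ± 17.8 and 93.3 ± 32.02 in *tmt2-S*. The ABA-induced list thus had no common direction, like the phosphatases.

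**Figure D5:**
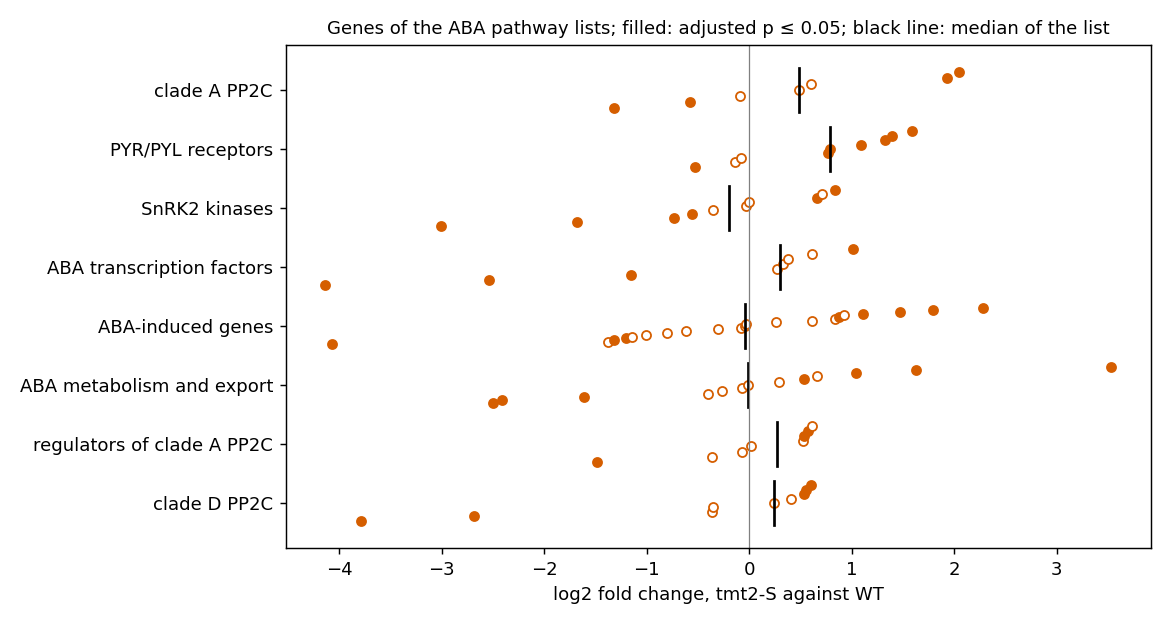
The edgeR log2 fold change of *tmt2-S*/WT for every tested gene of 8 ABA-related lists, with filled points for an adjusted p of 0.05 or less and a black line at the median of each list. The clade A PP2Cs spread from -1.32 to 2.05, and the receptors have the highest median of the 8 lists, 0.79.

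Of 18 genes of ABA synthesis, breakdown and release, 13 were tested, 4 were higher and 3 lower. *NCED3*, whose product catalyses the rate-limiting cleavage step of ABA synthesis, fell from 5.38 ± 0.741 to 1.04 ± 0.402 FPKM (log2FC -2.41, SE 0.38, edgeR adjusted p = 0.000294). *BGLU18*, which releases ABA from its glucose ester, fell from 10.9 ± 0.567 to 1.99 ± 1.35 FPKM (log2FC -2.50, edgeR adjusted p = 0.000195). *AAO3*, the oxidase of the last step of synthesis, rose from 1.75 ± 0.441 to 5.49 ± 0.477 FPKM (log2FC 1.63, edgeR adjusted p = 4.32e-05). *CYP707A4*, one of the ABA 8′-hydroxylase genes of breakdown, rose from 0.280 ± 0.101 to 3.39 ± 1.19 FPKM (log2FC 3.53, edgeR adjusted p = 0.000185). *ABA1* and *CYP707A3*, the most abundant of the list, did not pass, at 168 ± 28.3 and 32.8 ± 8.17 FPKM in WT and 212 ± 19.9 and 53.7 ± 14.1 in *tmt2-S*. ABA itself was not measured.

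Of 8 genes whose products act on clade A PP2Cs, 2 were higher and 1 lower, and 3 were higher and 2 lower without *tmt2-S* 3. *BPM3* and *PUB13* encode subunits or enzymes of ubiquitin ligation that target PP2C proteins. *BPM3* rose from 20.2 ± 0.752 to 31.0 ± 2.44 FPKM (log2FC 0.58, edgeR adjusted p = 0.00275) and *PUB13* from 19.0 ± 1.05 to 28.1 ± 0.599 (log2FC 0.53, edgeR adjusted p = 0.0123). *DOG1*, the dormancy gene whose product binds AHG1 and PP2CA (AHG3), fell from 1.87 ± 0.730 to 0.660 ± 0.570 FPKM (edgeR adjusted p = 0.0406), a call lost in the fit of the compared groups alone (edgeR adjusted p = 0.079) and without WT 2, WT 3, WT-Suc 2, *tmt2-S* 1, *tmt2-S* 2 or *tmt2-L-Suc* 1 (edgeR adjusted p up to 0.149). AT5G22090, the most abundant of the list, had 37.8 ± 5.61 FPKM in WT and 37.2 ± 6.09 in *tmt2-S*.

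Clade D of the PP2C family, several members of which act on plasma membrane proton pumps in auxin-driven growth, was set beside clade A. Of its 9 genes, all were tested, 3 were higher and 2 lower in *tmt2-S*. The number that passed fell from 5 to 3 (1 higher and 2 lower) without WT 3, without *tmt2-S* 2 or with only the groups compared. AT5G02760 fell from 123 ± 50.8 to 8.98 ± 2.395 FPKM (log2FC -3.79, SE 0.40, edgeR adjusted p = 1.82e-05) and AT5G66080 from 13.0 ± 4.59 to 2.07 ± 1.47 (log2FC -2.69, edgeR adjusted p = 0.000459). AT3G51370 rose from 46.0 ± 6.15 to 70.6 ± 4.002 FPKM (log2FC 0.60, edgeR adjusted p = 0.00247). AT4G38520, among the most abundant, had 55.7 ± 7.93 FPKM in WT and 44.2 ± 8.997 in *tmt2-S*. Both clades were thus divided in *tmt2-S*, with the largest rises in clade A (*HAI1* and *HAB1*) and the largest falls in clade D.

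In *tmt2-S*/*tmt2-L-Suc*, 4 receptor genes were higher and 1 lower, 3 SnRK2 genes were higher and 2 lower, 4 transcription factor genes were higher and none lower, and 10 ABA-induced genes were higher and 1 lower, with a median log2FC of 0.78 for the ABA-induced genes beside -0.02 over all genes. Of the ABA metabolism genes 3 were higher and 4 lower (median -0.20), of the regulators 2 and 1 (median 0.32), and of clade D 1 and 2 (median -0.07). The backgrounds were 25.7% higher and 25.8% lower. For the ABA-induced genes, the median log2FC was -0.82 in *tmt2-L-Suc*/WT and -0.04 in *tmt2-S*/WT, beside -0.006 over all genes in both. Of the 21 tested, 4 passed in *tmt2-L-Suc*/WT, each with a negative log2FC, against 11.7% of all genes tested. Set against WT, the median of this list was thus shifted in *tmt2-L-Suc* and hardly in *tmt2-S*. The medians of the transcription factor genes were -0.56 and 0.30. In WT-Suc/WT, no gene of the receptor, SnRK2, transcription factor, ABA-induced, metabolism or regulator lists passed, as none of the clade A PP2Cs did. With 1.47% of all genes tested called there, this does not show that the lists were unchanged. The median log2FC of the ABA-induced genes was -0.72, beside 0.015 over all genes. Those of the other lists named here ran from -0.20 (metabolism) to 0.29 (receptors). Of the clade D genes, 1 passed there: AT4G33920 had 18.2 ± 1.91 FPKM in WT and 9.12 ± 2.67 in WT-Suc (log2FC -1.09, SE 0.21, edgeR adjusted p = 0.0327), and without WT-Suc 2 no gene of the whole table passed in this comparison.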

How the data were processed

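Poly(A) RNA of 12 shoot libraries was sequenced on an MGISeq platform. The authors filtered the reads, aligned them to TAIR10.1 with Bowtie2 and ran RSEM (versions not given in the sources used here). The deposited expected counts are RSEM's reads per gene, not normalized, and the deposited FPKM values are RSEM's levels per transcript length and mapped fragments, as calculated by the authors. Strandedness is not stated. The study speaks of biological replicates, and the p-values judge differences between groups against the spread between these replicates. Its 12 TPM columns and 12 columns of averages were not used.

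Labels gave each library's genotype, treatment and replicate number. Expected counts were rounded to whole numbers (all 108 values of the clade were whole within 1e-06). They were analysed in R 4.3.3 with edgeR 4.0.16: filterByExpr, TMM scaling and 1 quasi-likelihood model with 4 group means over 12 libraries (glmQLFit, glmQLFTest, two-sided), with Benjamini-Hochberg adjustment over 18506 genes. The standard error is the log2FC divided by the square root of F. All 22953 genes matched the RefSeq annotation of TAIR10.1, from which coordinates and promoter sequence were read. Where a compared group was at or under 3 counts in every library, the fitted fold depends on the prior count and is not printed. *HAI2* had 1 to 20 counts per library, and its printed log2FC values rest on these low counts.

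The clade members and the ABA lists were chosen with earlier results of these data known. Named genes were all clade members and *TMT2*, and in each list the 2 largest rises and 2 largest falls that passed in *tmt2-S*/WT, any gene that passed in WT-Suc/WT and the 2 with the highest mean FPKM, and for each member the gene most alike. Alternatives were median-of-ratios scaling, DESeq2 1.42.0, no filter, at least 10 counts in every library, only the groups compared, a replicate block, limma 3.58.1 on log2(FPKM + 0.1) and each replicate left out.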

Additional observations from a re-analysis of the deposited data

Results flagged for a closer look

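The effect of sucrose differed between the genotypes for 4 clade members by the interaction term of the edgeR model, in log2 units of the effect in *tmt2* minus that in the WT: *HAB1* with -1.56 (SE 0.20, edgeR adjusted p = 0.000216), *HAB2* with 0.65 (SE 0.18, edgeR adjusted p = 0.0161), *PP2CA* with 1.56 (SE 0.52, edgeR adjusted p = 0.0343) and *HAI1* with -2.5 (SE 0.88, edgeR adjusted p = 0.0436). Over all genes tested, 34.6% passed this term. The *tmt2-S* group in it is older than the other 3 groups and arrested, so age and arrest cannot be told apart from a difference in the response to sucrose. The interaction of *HAB1* and *HAB2* passed under every alternative tried, and that of *PP2CA* and *HAI1* did not. Over these alternatives (edgeR, DESeq2 or limma), the highest adjusted p was 0.00114 for *HAB1* and 0.0498 for *HAB2*, the latter just under the threshold.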

How the results depend on the processing

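The calls of *HAB1* and *HAB2* in *tmt2-S*/WT, in *tmt2-S*/*tmt2-L-Suc* and in the interaction passed under all alternatives tried, that of *HAB2* in the interaction only narrowly in 1 of them. The number of clade members called in the interaction fell from 4 to 2 with the replicate number as a block (*HAI1* edgeR adjusted p = 0.0607, *PP2CA* 0.0515), to 2 with limma on log2(FPKM + 0.1), and lay between 2 and 4 when single replicates were dropped. Between libraries with the same replicate number, correlations of the deviations from the group means ran from -0.325 to 0.331. Whether such libraries share a batch was not tested. The block changed no other call of a member. In *tmt2-S*/WT, of the named list genes, it ended the calls of *PYR1* (edgeR adjusted p = 0.0564), *RD20* (0.0566), *KIN2* (0.0606) and *DOG1* (0.0524), and limma those of *KIN2* (adjusted p = 0.102) and AT4G33920 (0.0505). The call of AT4G33920 (log2FC 0.555, edgeR adjusted p = 0.0453) was unstable. It was kept in 6 of 19 alternatives, with an edgeR adjusted p up to 0.222 without *tmt2-S* 2. DESeq2 called 1 member, *HAB1*, in WT-Suc/WT and 1 in *tmt2-L-Suc*/WT-Suc, against 0 by edgeR. The cause of these moves was not tested.

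Over all genes, WT-Suc/WT gave 272 calls, 1161 with DESeq2, 133 with only the groups compared, 153 with the replicate block, 133 with limma, and 0 to 1445 when single replicates were dropped (0 without WT-Suc 2, 1445 without WT-Suc 1). *tmt2-L-Suc*/WT gave 797 to 2758 and *tmt2-L-Suc*/WT-Suc 1532 to 4763 calls when they were dropped.

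Directions turned only for values that were not called. With limma, the log2FC was 0.033 for *HAB2* in *tmt2-L-Suc*/WT, -0.02 for *HAI1* in WT-Suc/WT and -0.14 for *HAI2* in *tmt2-S*/*tmt2-L-Suc*. Without single replicates, the log2FC of *ABI1* ran from -0.41 to 0.17 in the interaction and from -0.58 to 0.075 in *tmt2-L-Suc*/WT. That of *ABI2* ran from -0.24 to 0.58 in the interaction, -0.24 to 0.26 in *tmt2-L-Suc*/WT-Suc, -0.15 to 0.61 in *tmt2-S*/*tmt2-L-Suc* and -0.60 to 0.21 in *tmt2-S*/WT. That of *HAI1* ran from -0.98 to 0.15 in *tmt2-L-Suc*/WT, -1.20 to 0.40 in *tmt2-L-Suc*/WT-Suc and -0.64 to 0.66 in WT-Suc/WT. That of *HAI2* ran from -0.32 to 1.92 in the interaction, -0.82 to 0.65 in *tmt2-S*/*tmt2-L-Suc*, -0.39 to 1.47 in *tmt2-S*/WT and -2.10 to 0.15 in WT-Suc/WT. That of *PP2CA* ran from -0.34 to 0.54 in *tmt2-L-Suc*/WT-Suc. *AHG1* and *HAI3*, with at most 5 counts in any library, were not tested.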
